A study of Mus musculus with 4 samples.

Results

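Immunoglobulin variable segments are the gene pieces that encode the antigen-binding end of an antibody chain. The members described here were 113 such segments: 58 heavy chain segments (Ighv), 52 kappa light chain segments (Igkv) and 3 lambda light chain segments (Iglv). They were chosen by their measured level, as the rows with one of these symbols that reached at least 1 FPKM in at least 2 of the 4 libraries. That rule kept 113 of the 348 variable segment rows, and 13148 of all 47561 genes reached the same level. FPKM is a read level divided by transcript length and by library size. The file headers name no unit, so it was inferred from the values. In GENCODE release 21 for mouse, 111 of the members are annotated as functional variable genes and Ighv1-41 as a pseudogene, while Igkv8-23-1 had no match.

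The libraries came from LSK cells (Lin-Sca-1+c-Kit+), the marrow fraction that holds blood stem cells and early progenitors, sorted from the bone marrow of C57BL/6 mice aged 12 weeks. The control group was 2 Metrn f/f mice, which carry the floxed Meteorin gene and are labelled wild type. The other group was 2 Metrn f/f mice with LysM, labelled cKO. LysM is the lysozyme gene whose promoter is used to drive deletion in macrophages, neutrophils and other myeloid cells, so the LSK cells are not its main target. The labels give no sex and do not say which antibodies made up the lineage gate. Each library is a separate mouse, named here WT 1 and WT 2 (Metrn f/f) and cKO 1 and cKO 2 as in the titles, and read depth is unknown because the tables hold no counts. The Metrn level, which checks the genotype labels only in cells where the gene is deleted, was 29.3 and 66.3 FPKM in the WT libraries and 42.3 and 36.7 FPKM in the cKO libraries. Lyz2, the lysozyme gene itself, had 290 and 2406 FPKM in WT 1 and WT 2 and 2904 and 245 FPKM in cKO 1 and cKO 2, so it was high in the same 2 libraries as the variable segments.

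A developing B cell builds each antibody chain by V(D)J recombination, in which the Rag1 and Rag2 enzyme cuts the DNA and joins one variable segment to a joining segment, with a diversity segment between them in the heavy chain. The spliced mRNA then carries that variable segment in front of a constant region. Heavy chains are assembled first and are paired with the surrogate light chain in pre-B cells, before a kappa or lambda chain is made. Because each B cell uses few segments, the levels of the segments in a library can reflect which receptors its B lineage RNA carried. Bulk RNA does not show which heavy and light chains were paired. Whether the RNA measured here came from rearranged segments was not tested. Haematopoietic stem cells are not known for rearranged antibody genes.

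The 3′ end of a variable segment encodes the third framework, closed by a conserved cysteine, and the first residues of the third complementarity-determining region, the loop that recombination completes. The last 90 coding bases are printed for the 13 segments on which the results turn, 5′ to 3′ on the coding strand, from the GENCODE release 21 transcripts (build GRCm38, the assembly called mm10). Capitals mark the last in-frame cysteine codon. The heavy chain segments lie on the minus strand of chromosome 12. Ighv11-2 (chr12:114048241-114048330), Ighv7-1 (chr12:113896408-113896497) and Ighv1-18 (chr12:114682632-114682721) led in cKO 1. Ighv1-52 (chr12:115145487-115145576) led in cKO 2 and Ighv1-81 (chr12:115920279-115920368) in WT 1. Ighv1-26 (chr12:114788372-114788461) and Ighv1-34 (chr12:114851190-114851279) are shown together because their 90 bases are identical, so reads from this stretch fit either segment, and both differ from Ighv1-18 at 1 base.
Ighv11-2: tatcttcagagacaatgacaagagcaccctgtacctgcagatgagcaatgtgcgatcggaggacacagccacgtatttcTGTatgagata
Ighv7-1: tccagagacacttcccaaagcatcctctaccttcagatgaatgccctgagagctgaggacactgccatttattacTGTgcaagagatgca
Ighv1-18: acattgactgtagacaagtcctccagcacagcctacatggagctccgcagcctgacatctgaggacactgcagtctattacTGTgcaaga
Ighv1-26: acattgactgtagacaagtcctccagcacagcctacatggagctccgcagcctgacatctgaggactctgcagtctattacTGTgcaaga
Ighv1-34: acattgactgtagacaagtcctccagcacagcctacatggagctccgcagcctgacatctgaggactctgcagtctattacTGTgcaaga
Ighv1-52: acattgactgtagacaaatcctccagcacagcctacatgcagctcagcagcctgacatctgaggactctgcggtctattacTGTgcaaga
Ighv1-81: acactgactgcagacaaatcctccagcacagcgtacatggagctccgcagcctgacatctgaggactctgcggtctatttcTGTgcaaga

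The kappa segments lie on chromosome 6, in both orientations. Igkv14-126 (chr6:67896553-67896642, plus strand), Igkv15-103 (chr6:68437836-68437925, plus strand) and Igkv19-93 (chr6:68736297-68736386, minus strand) led in cKO 1. Igkv12-44 (chr6:69814631-69814720, minus strand) led in WT 1, and Igkv8-21 (chr6:70314895-70314984, minus strand) in cKO 2. Igkv5-48 (chr6:69726573-69726662, minus strand) is shown because its levels separated the genotypes.
Igkv14-126: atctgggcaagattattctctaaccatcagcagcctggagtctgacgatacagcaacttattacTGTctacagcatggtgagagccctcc
Igkv15-103: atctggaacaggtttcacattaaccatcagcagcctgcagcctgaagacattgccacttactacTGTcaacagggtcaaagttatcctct
Igkv19-93: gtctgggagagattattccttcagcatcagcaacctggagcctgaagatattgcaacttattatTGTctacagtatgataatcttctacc
Igkv12-44: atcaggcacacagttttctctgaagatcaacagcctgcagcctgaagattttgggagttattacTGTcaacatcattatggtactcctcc
Igkv8-21: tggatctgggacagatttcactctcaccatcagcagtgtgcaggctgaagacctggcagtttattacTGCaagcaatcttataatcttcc
Igkv5-48: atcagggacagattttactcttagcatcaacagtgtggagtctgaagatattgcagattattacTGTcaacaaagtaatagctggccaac

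The segments differ in how well short reads can tell them apart. Of the 112 members with a GENCODE transcript, 16 shared no exact window of 50 bases with another variable segment, and 16 shared more than 50% of their windows. Ighv7-1, Igkv14-126, Igkv15-103, Igkv19-93 and Igkv5-48 shared 0% of theirs, so their values are the least exposed to reads that fit several segments. Ighv11-2 shared 38.6%, most of them with Ighv11-1, and Ighv1-34 shared 45.7%, most of them with Ighv1-26. Ighv1-52 shared 67.2%, and levels of such Ighv1 segments are uncertain where reads fit several of them.

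Variable segment levels were high in WT 2 and cKO 1, 1 library of each genotype, and low in WT 1 and cKO 2. The members summed to 103 FPKM in WT 1, 3082 in WT 2, 10351 in cKO 1 and 113 in cKO 2, which was 0.0261%, 0.459%, 1.84% and 0.0274% of each library's total. The 2 mice of each genotype thus differed far more than the low mice of the 2 genotypes differed from each other. In these bulk samples, fewer cells of a type and less RNA per cell cannot be told apart.

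Heavy chain segments summed to 61.5, 959, 3969 and 58.4 FPKM in WT 1, WT 2, cKO 1 and cKO 2. WT 2 was 15.6-fold above WT 1, and cKO 1 was 68.0-fold above cKO 2. Kappa segments summed to 25.3, 1855, 6150 and 53.3 FPKM in the same order, a range wider than that of the heavy chain. Lambda segments summed to 15.8, 268, 232 and 1.47 FPKM, so lambda was the chain for which WT 2 and cKO 1 were close (0.864-fold) while cKO 2 lay below WT 1 (0.0931-fold).

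The 2 genotypes overlapped for all 3 sums. The mean heavy chain sum was 510 ± 634 FPKM (SD, n = 2) in WT and 2014 ± 2765 FPKM (SD, n = 2) in cKO, with a mean log2 difference (cKO minus WT) of 0.99. The kappa difference was 1.39 and the lambda difference -1.49 on the log2 scale. The 2-sided exact permutation test over the 4 libraries gave p = 1 for heavy, p = 0.667 for kappa and p = 0.667 for lambda, and its smallest possible p here is 0.333. Without WT 1 or without cKO 1 the heavy and kappa differences turned negative, as far as -2.04 and -2.03 without cKO 1, and without WT 2 or cKO 2 the lambda difference turned positive, up to 1.79.

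**Figure D1:**
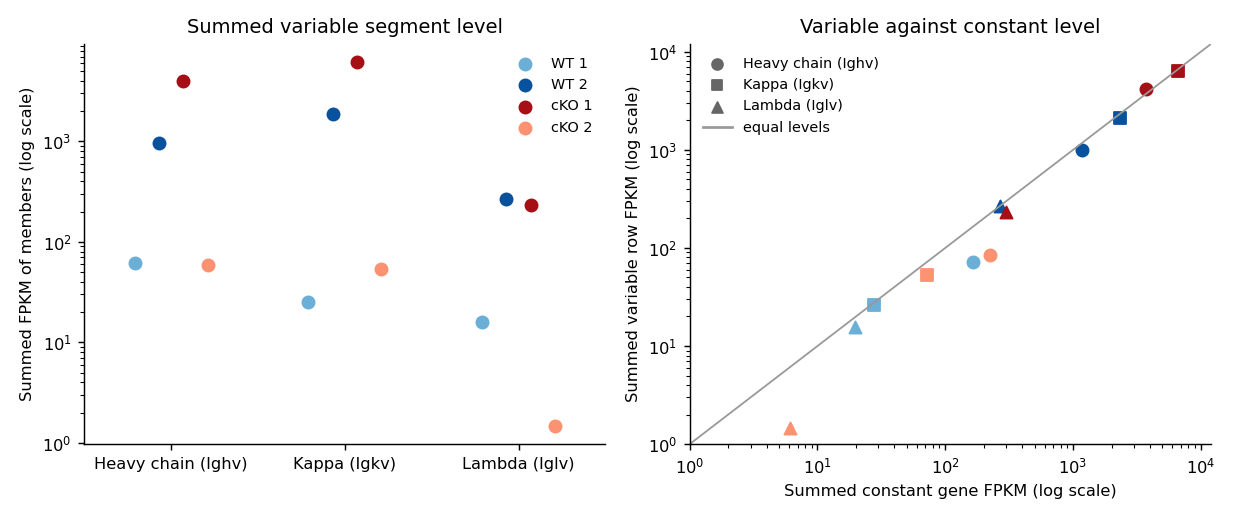
Left, the summed FPKM of the heavy, kappa and lambda segments (log scale), 1 point per library; WT 2 and cKO 1 lie above WT 1 and cKO 2 at all 3 loci. Right, the summed FPKM of all variable rows against the summed FPKM of the constant genes of the same chain (both axes log scale), with the line of equal levels; kappa points lie close to the line and cKO 2 lambda (1.47 against 6.10 FPKM) lies below it.

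Variable and constant levels moved together, most closely for kappa. Since each kappa mRNA carries 1 variable segment and the single constant gene Igkc, their levels per length can be set side by side. Over all kappa rows the variable sum was 0.932, 0.902, 0.955 and 0.747 times the Igkc level of 27.8, 2317, 6676 and 71.4 FPKM in WT 1, WT 2, cKO 1 and cKO 2. The ratio thus stayed between 0.747 and 0.955 while Igkc spanned from 27.8 to 6676 FPKM. For lambda the ratio to the 4 Iglc genes was 0.804, 1.01, 0.776 and 0.241, lowest in cKO 2 where the variable sum was 1.47 FPKM.

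The heavy chain behaved differently. Its variable sum was 0.848 and 1.10 times the sum of the 8 constant genes in WT 2 and cKO 1, but 0.430 and 0.378 times that sum in WT 1 and cKO 2. Ighm, the constant gene of IgM and the first to be used, led the constant genes at 144, 727, 3426 and 188 FPKM. Relative to the constant level, the variable level was thus lower in the 2 low libraries, and both sums depend on how reads were assigned among genes.

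The light chain mix also differed between libraries. The kappa sum was 1.6 times the lambda sum in WT 1, 6.91 times in WT 2, 26.5 times in cKO 1 and 36.2 times in cKO 2. Both cKO libraries lay above both WT libraries; with 2 mice per genotype an exact permutation test cannot give a p below 0.333. In WT 1 and cKO 2 these ratios rest on 1 lambda segment, Iglv1, at 15.8 and 1.38 FPKM. The light chain sum was 0.669, 2.21, 1.61 and 0.938 times the heavy chain sum in WT 1, WT 2, cKO 1 and cKO 2, so light chains exceeded heavy chains in the 2 libraries with high levels.

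Most members owe their place to those 2 libraries. Of the 113, 90 reached 1 FPKM in WT 2 and cKO 1 and in neither of the others: 41 heavy, 47 kappa and 2 lambda segments. Because the level rule selected them in this way, their count is a description and supports nothing. Segments that reached 1 FPKM in all 4 libraries numbered 7, namely Iglv1 and the heavy chain segments Ighv1-41, Ighv1-69, Ighv1-74, Ighv1-77, Ighv1-81 and Ighv1-82. The median member had 0 FPKM in WT 1 and cKO 2, 12.5 FPKM in WT 2 and 21 FPKM in cKO 1.

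**Figure D2:**
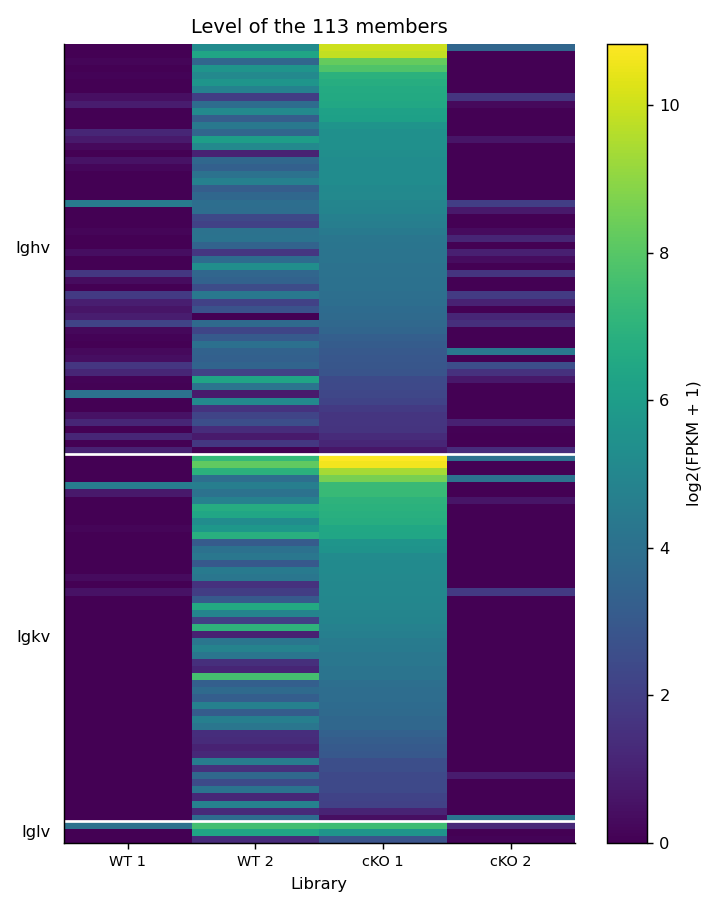
Level of each of the 113 members in the 4 libraries as log2(FPKM + 1), 1 row per segment, grouped into heavy, kappa and lambda and ordered within each group by the cKO 1 level. WT 2 and cKO 1 are filled at nearly all rows, whereas 74 members in WT 1 and 82 in cKO 2 are listed at 0.

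The segments nearest the level limit were as follows. Igkv16-104, Ighv1-43 and Igkv4-57-1 were just inside, with a second-highest value of 1.01, 1.01 and 1.07 FPKM. Ighv5-2, Igkv3-5 and Ighv1-42 were just outside, at 0.926, 0.912 and 0.860 FPKM. Ighv5-2, known as 81X, is a segment close to the diversity segments that is used often early in B cell development, and it had 0.926 FPKM in WT 2, 3.14 in cKO 1 and 0 in the other two. Further segments outside the limit reached 1 FPKM in a single library: 17 heavy and 14 kappa segments in cKO 1, 5 and 8 in WT 2, 5 and 0 in cKO 2, and 2 and 0 in WT 1. The highest of these was Igkv4-72, at 97.8 FPKM in WT 2.

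Among heavy chain segments, Ighv11-2 and Ighv7-1 stood highest. Ighv11-2 is known from B-1 cell receptors that bind phosphatidylcholine. It had 0 FPKM in WT 1, 36.6 in WT 2, 1034 in cKO 1 and 10.9 in cKO 2, and made up 26.0% of the heavy chain member sum in cKO 1 and 18.6% in cKO 2. Its levels overlapped between the genotypes, since WT 2 lay above cKO 2. Its log2 difference on log2(FPKM + 1) was 4.17 (SE 2.34), with limma adjusted p = 1.00.

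Ighv7-1, the S107 segment known from antibodies to phosphorylcholine, had 0, 81.3, 902 and 0 FPKM in WT 1, WT 2, cKO 1 and cKO 2. It was the highest heavy chain segment in WT 2, at 8.48% of the member sum, and the second highest in cKO 1, at 22.7%. Ighv1-18 had 0.111, 10.9, 311 and 0 FPKM and came next in cKO 1. These 3 segments made up 56.6% of the heavy chain member sum there. The next by mean level, Ighv9-3 (0, 48.1, 229 and 0 FPKM) and Ighv5-9-1 (0, 48.6, 106 and 0 FPKM), were listed at 0 in both low libraries.

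The other heavy chain leaders differed from mouse to mouse. In WT 2, Ighv8-12 followed Ighv7-1 at 80.2 FPKM, whereas it had 4.37 FPKM in cKO 1, 0.0806 in WT 1 and 0.619 in cKO 2. In WT 1, Ighv1-81 at 21.7 FPKM and Ighv9-1 at 15.8 FPKM together with Ighv1-74 at 3.63 FPKM made up 66.8% of the sum. Ighv9-1 had 0.717, 3.91 and 0 FPKM in WT 2, cKO 1 and cKO 2, so it was highest in a library whose variable sum was low. In cKO 2, Ighv1-52 led at 19.4 FPKM, above its 0.224, 9.48 and 7.13 FPKM in WT 1, WT 2 and cKO 1.

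Among kappa segments, Igkv14-126 had 0, 146, 1824 and 15.6 FPKM in WT 1, WT 2, cKO 1 and cKO 2. Igkv14-126 is the kappa segment known to pair with Ighv11-2 in phosphatidylcholine-binding B-1 cells. Ighv11-2 and Igkv14-126 were thus both listed at 0 in WT 1 and both among the 3 leading segments of their loci in cKO 1 and cKO 2. In WT 2 they also ranked high, Igkv14-126 as number 3 of the kappa members and Ighv11-2 as number 7 of the heavy chain members. Whether they were paired cannot be read from bulk RNA. The log2 difference of Igkv14-126 was 3.84 (SE 2.77), with limma adjusted p = 1.00.

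A second known phosphatidylcholine-binding pair is Ighv12-3 with Igkv4-91. Ighv12-3 had 0.206, 33.3, 41.8 and 0 FPKM in WT 1, WT 2, cKO 1 and cKO 2. Igkv4-91 did not meet the level rule, with 0, 0.305, 26.7 and 0 FPKM. In WT 2 the heavy segment of this pair was therefore measured with very little of its known kappa partner. Ighv1-72, the V186.2 segment of the response to the hapten NP, had 0.0682, 7.44, 8.68 and 0 FPKM. It shared 92.5% of its windows with other segments, most of them with Ighv1-62-3, so its level is uncertain.

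Igkv15-103 had 0, 288, 1588 and 0 FPKM and Igkv19-93 had 0, 119, 657 and 0 FPKM in WT 1, WT 2, cKO 1 and cKO 2. Together with Igkv14-126 they made up 66.2% of the kappa member sum in cKO 1. Igkv15-103 also led in WT 2, at 15.5%. There Igkv4-59 came second at 199 FPKM, against 17.0 FPKM in cKO 1 and 0 in both low libraries. Igkv5-39 was nearly level between the high libraries, with 0, 103, 121 and 0 FPKM.

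The low libraries each showed few kappa segments, and different ones. In WT 1, Igkv12-44 at 23.9 FPKM made up 94.2% of the kappa member sum, followed by Igkv9-120 at 0.656 FPKM and Igkv14-111 at 0.447 FPKM. Igkv12-44 was listed at 0 in cKO 2 and had 23.6 and 161 FPKM in WT 2 and cKO 1. In cKO 2, Igkv8-21 at 17.7 FPKM, Igkv5-48 at 16.1 FPKM and Igkv14-126 at 15.6 FPKM made up 92.6%. None of these 3 was above 0 in WT 1. Igkv8-21 had 13.0 FPKM in WT 2 and 0.371 FPKM in cKO 1, the lowest value of any kappa member there.

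The lambda locus of the mouse is small, and its 3 rows all met the level rule. Iglv1 had 15.8, 185, 178 and 1.38 FPKM in WT 1, WT 2, cKO 1 and cKO 2, and led in every library. Iglv2 had 0, 82.0, 47.5 and 0 FPKM, and Iglv3 had 0, 1.5, 5.76 and 0.0909 FPKM. Iglv1 and Iglv2 are 96.9% identical over 351 coding bases. The last 240 of these are printed to show where they can be told apart, from the minus strand of chromosome 16 (chr16:19085017-19085256 for Iglv1 and chr16:19260401-19260640 for Iglv2), with the 6 differing bases in capitals.
Iglv1: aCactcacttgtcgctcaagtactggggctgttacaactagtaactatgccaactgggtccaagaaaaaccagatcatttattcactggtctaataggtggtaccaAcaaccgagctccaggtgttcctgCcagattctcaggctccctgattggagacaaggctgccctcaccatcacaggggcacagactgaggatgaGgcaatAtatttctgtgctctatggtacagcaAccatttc
Iglv2: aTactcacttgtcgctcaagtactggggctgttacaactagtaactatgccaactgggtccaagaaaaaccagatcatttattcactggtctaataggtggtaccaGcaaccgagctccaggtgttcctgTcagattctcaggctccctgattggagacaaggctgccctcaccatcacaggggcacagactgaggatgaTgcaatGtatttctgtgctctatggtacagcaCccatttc

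Long stretches without a difference lie between the capitals, and the Iglv1 and Iglv2 values depend on how reads from those stretches were assigned. Iglv1 was 68.9% of the lambda sum in WT 2 and 77.0% in cKO 1. In WT 1 Iglv2 was listed at 0 beside 15.8 FPKM of Iglv1, so reads were not divided evenly between them.

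How many segments carried the sum differed by library. In WT 2, 10 heavy chain and 6 kappa segments were needed to reach 50% of the member sum. In cKO 1, whose sums were 4.14-fold and 3.32-fold larger, 3 heavy and 2 kappa segments were enough. The 3 leading segments made up 23.8% of the heavy and 34.1% of the kappa sum in WT 2, against 56.6% and 66.2% in cKO 1. The inverse Simpson index, the number of equally used segments that would give the same concentration, was 26.0 for heavy and 15.1 for kappa segments in WT 2, and 7.44 and 5.76 in cKO 1.

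In the low libraries the index was 4.97 for heavy and 1.12 for kappa segments in WT 1, and 6.08 and 3.46 in cKO 2. Few detected segments at unknown depth can set such low values. Over all heavy chain rows, members or not, the index was 6.62, 28.1, 8.09 and 9.11 in WT 1, WT 2, cKO 1 and cKO 2. The heavy chain order of cKO 1 and cKO 2 thus reversed once rows outside the level rule were counted. In cKO 2 the heavy chain sum was 58.4 FPKM over members and 85.3 FPKM over all rows. There Ighv1-85, which missed the level rule, ranked between Ighv1-52 and Ighv11-2. The library with the largest sums, cKO 1, was therefore more concentrated than WT 2, which had smaller sums. With 1 mouse on each side this difference has no replicate check.

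**Figure D3:**
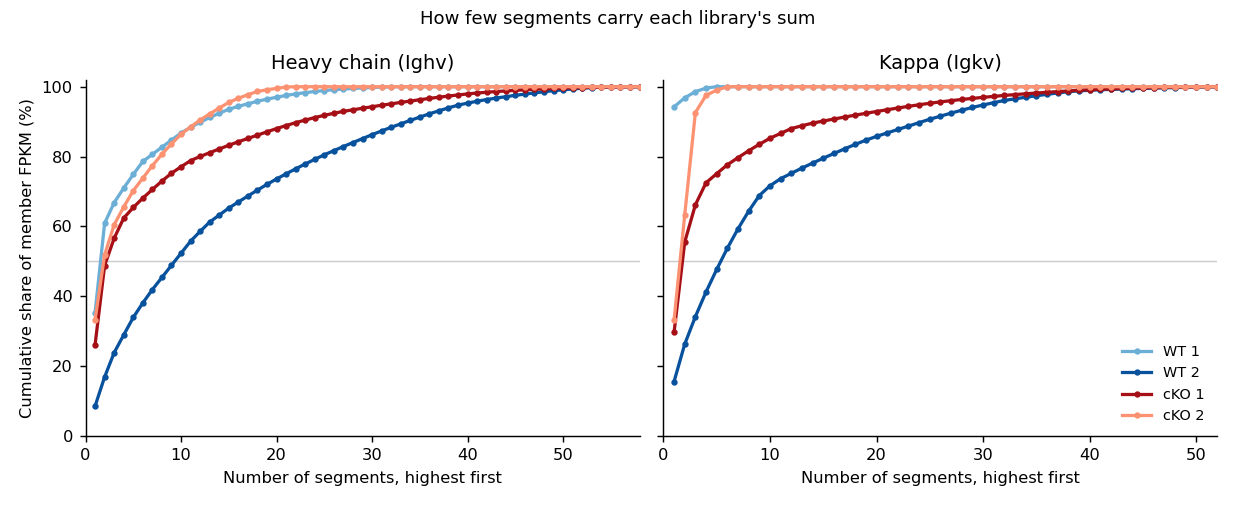
Cumulative share of the member FPKM sum (percent) against the number of segments, counted from the highest, for heavy chain (left) and kappa (right) segments, 1 line per library, with a grey line at 50%. Over the leading segments the WT 2 line is the lowest in both panels, and it crosses 50% at 10 heavy and 6 kappa segments.

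Families of similar segments followed the leaders. Ighv1, the largest heavy chain family with 32 members, made up 68.6% of the heavy chain member sum in WT 1 and 73.6% in cKO 2, against 41.5% in WT 2 and 22.6% in cKO 1. Ighv7 made up 0%, 9.33%, 23.6% and 0% in WT 1, WT 2, cKO 1 and cKO 2. Of the kappa families, Igkv4, with 9 members, made up 13.9% in WT 2 and 1.70% in cKO 1 and was listed at 0 in both low libraries. Igkv14 made up 30.2% in cKO 1 and 34.2% in cKO 2, and 8.04% in WT 2.

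Position along the locus showed the same contrast. All Ighv rows were ordered by their distance from the first joining segment and divided into 3 parts of 61 rows. The farthest 61, 1516 to 2580 kb away, held 57.0% of the heavy chain sum in WT 1 and 70.3% in cKO 2, but 29.6% in WT 2 and 9.76% in cKO 1. The nearest 61 rows, 143 to 884 kb away and home to Ighv11-2 and Ighv7-1, held 69.8% in cKO 1, 35.9% in WT 2, 26.0% in WT 1 and 16.9% in cKO 2. In both low libraries the heavy chain level thus lay mostly at the far end of the locus, where Ighv1-52, Ighv1-74, Ighv1-77 and Ighv1-81 lie. Single segments set much of these shares: Ighv1-81 alone was 35.3% of the member sum in WT 1 and Ighv1-52 33.2% in cKO 2.

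Kappa rows ran the other way. The nearest 53 rows held 92.1% of the kappa sum in WT 1 and 64.8% in cKO 2, against 33.2% in WT 2 and 19.3% in cKO 1, although in the low libraries few segments set these shares. The farthest 54 rows of the Igkv locus, 1986 to 3166 kb from its first joining segment, held 77.8% of the kappa sum in cKO 1, where Igkv14-126, Igkv15-103 and Igkv19-93 all lie in it. It held 45.8% in WT 2, 35.2% in cKO 2 and 7.93% in WT 1. The middle 53 rows held 0% in both low libraries, with 0 of them above 0, against 21% in WT 2 and 2.92% in cKO 1.

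Pseudogene rows separated the loci as well. Of 69 heavy chain pseudogenes, 18 were above 0 in WT 1, 8 in WT 2, 16 in cKO 1 and 11 in cKO 2, and none exceeded 6.10 FPKM. Their summed level was 7.86, 5.64, 11.0 and 10.9 FPKM in these libraries, so it did not follow the functional segments, which summed to 63.4, 997, 4132 and 74.4 FPKM. Of 60 kappa pseudogenes, 0, 2, 2 and 0 were above 0. The share of the heavy chain sum that is level at pseudogenes is thus larger in the 2 low libraries, and the only pseudogene among the members, Ighv1-41, had 1.26, 3.45, 6.10 and 1.92 FPKM.

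**Figure D4:**
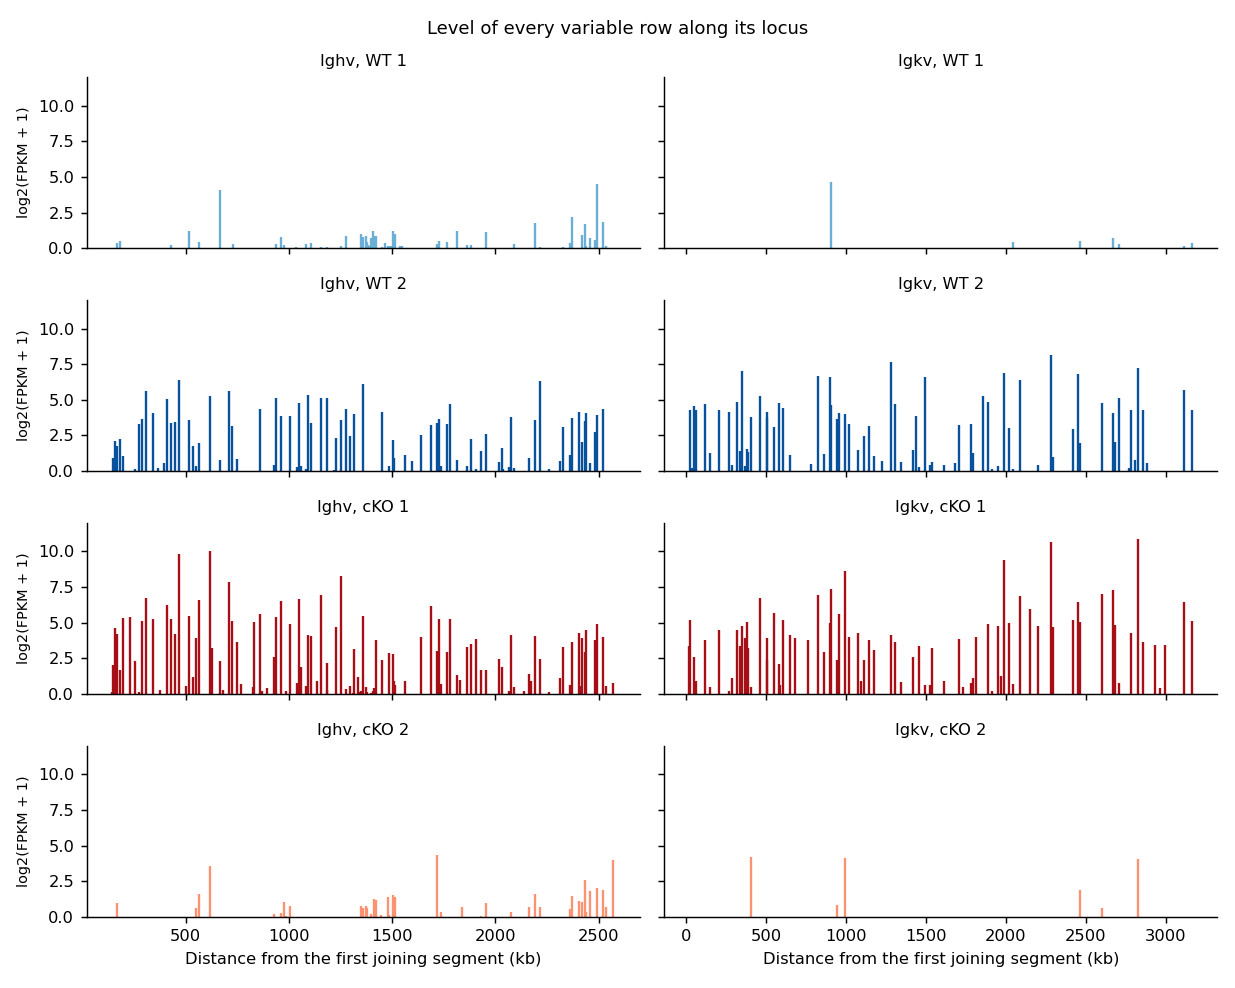
Level of each variable row as log2(FPKM + 1) against its distance from the first joining segment of its locus (kb), heavy chain on the left and kappa on the right, 1 pair of panels per library. Bars fill both loci in WT 2 and cKO 1, while WT 1 has 61 heavy chain and 7 kappa rows above 0 and cKO 2 has 42 and 6.

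In the comparison of cKO with WT across all 13148 tested genes, no variable segment passed the test. By limma with Benjamini-Hochberg adjustment 0 of 113 segments were called, as were 0% of all tested genes. At an unadjusted limma p under 0.05, 1 segment (Igkv5-48) was higher in cKO beside 0.0608% of all tested genes, and 0 were lower beside 0.236%. The median log2 difference was 0.52 for heavy, 0.36 for kappa and -0.39 for lambda segments, against 0.07 over all tested genes. The heavy and kappa medians turned negative without WT 1 and also without cKO 1 (-1.63 and -1.95 without cKO 1). The lambda median turned positive without WT 2 and also without cKO 2 (2.1 without cKO 2).

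Segments whose 2 cKO values both lay above both WT values numbered 2 of 113 (1.77%), beside 6.31% of all tested genes. In the other direction there were 0 of 113, beside 5.73% of all tested genes. Nothing is read from these shares, because the 90 members that reached 1 FPKM in WT 2 and cKO 1 and in neither other library cannot separate by genotype. The count of 2 rose to 80 without cKO 2, to 22 without WT 2 and to 5 without cKO 1. The count of 0 in the other direction became 29 without WT 1, 27 without cKO 1 and 1 without WT 2. Such counts thus followed which of the high and low mice were kept.

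The 2 separated segments were Igkv5-48 and Ighv1-34. Igkv5-48 had 0 and 14.7 FPKM in WT 1 and 2 and 389 and 16.1 FPKM in cKO 1 and 2. Its log2 difference was 4.36 (SE 1.72), with limma adjusted p = 1.00. The gap between WT 2 and cKO 2 was small, although the summed kappa level was 1855 FPKM in the former and 53.3 in the latter. Ighv1-34 had 0.849 and 0 FPKM in WT and 12.4 and 1.24 FPKM in cKO, with a log2 difference of 2.01 (SE 0.91) and limma adjusted p = 1.00. In WT 2, where Ighv1-34 was listed at 0, there were 67.0 FPKM of Ighv1-26, whose last 90 coding bases are identical, against 0.696, 42.6 and 0.523 FPKM in WT 1, cKO 1 and cKO 2.

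The other segments with the smallest limma p overlapped between the genotypes. Higher in mean log2 level were Ighv14-2 (log2 difference 2.91, SE 1.52) and Igkv14-111 (2.21, SE 1.09), besides Ighv11-2. Lower were Ighv8-12 (-1.67, SE 1.87), Ighv1-12 (-1.45, SE 1.62), Igkv8-28 (-1.33, SE 1.53), Ighv9-1 (-1.28, SE 1.23) and Ighv1-62-1 (-0.56, SE 0.68). Each of these had limma adjusted p = 1.00, and each of the 5 lower ones turned higher when 1 WT mouse was left out, WT 1 for Ighv9-1 and WT 2 for the others.

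The calls depended on single mice. Without cKO 2, 25 segments, 12 heavy and 13 kappa, were called higher in cKO by limma, beside 0.243% of all tested genes. They included Ighv11-2, Ighv7-1, Ighv1-18, Igkv14-126, Igkv15-103, Igkv19-93 and Igkv5-48. Without cKO 1, 2 segments (Igkv12-44 and Iglv1) were called lower, beside 0.038% of all tested genes. The one cKO mouse kept in each of these fits was taken to vary like the WT mice. No excess over all tested genes is read from these counts, because most members were chosen by their level in WT 2 and cKO 1.

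The mice within each genotype differed at most members, as the level rule makes likely. On log2(FPKM + 1), 106 of 113 segments (93.8%) were at least 2-fold higher in WT 2 than in WT 1, beside 13.7% of all tested genes. Likewise 108 of 113 (95.6%) were at least 2-fold higher in cKO 1 than in cKO 2, beside 6.72%. Nothing is read from these counts, because 90 of the members were chosen by their level in those 2 libraries.

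Between the 2 high libraries, cKO 1 was above WT 2 at 82 of 113 segments. It was at least 2-fold higher at 53 (46.9%), beside 7.09% of all tested genes, and at least 2-fold lower at 13 (11.5%), beside 6.33%. These shares are only a description, because most members were chosen by their level in these 2 libraries and each side is 1 mouse. The larger steps upward included Igkv5-48 (14.7 against 389 FPKM), Ighv11-2 (36.6 against 1034 FPKM) and Ighv14-2 (2.87 against 95.4 FPKM), and those downward included Ighv8-12, Igkv4-59 and Igkv8-28 (25.8 against 3.23 FPKM). Segment levels in the 2 libraries had a Spearman correlation of 0.538 over the 113 segments, given as a description because segments of 1 library share its cells and depth. Of the 10 highest heavy chain segments 5 were the same in both, as were 5 of the 10 highest kappa segments.

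**Figure D5:**
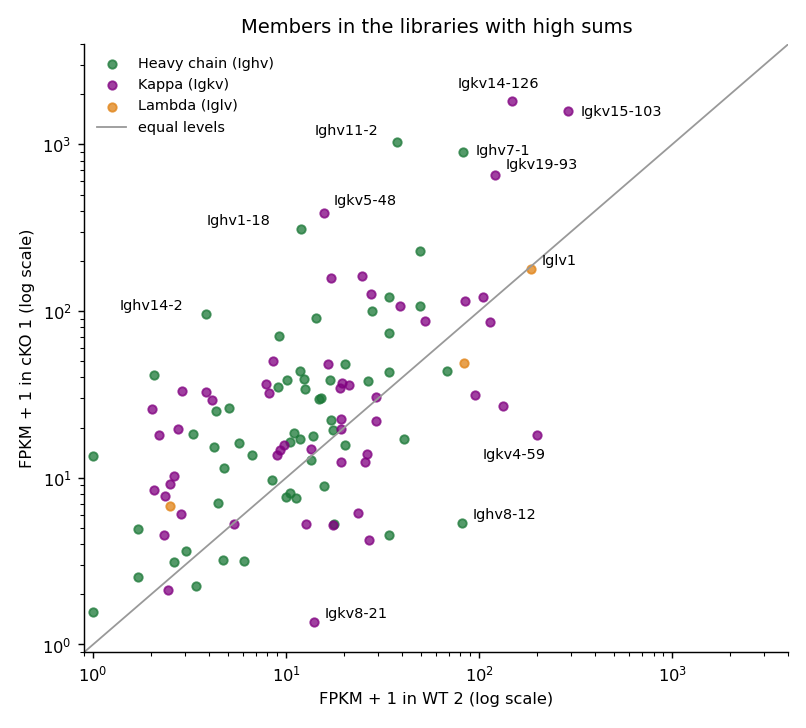
FPKM + 1 of each member in cKO 1 against WT 2 (both axes log scale), coloured by locus, with the line of equal levels. Of the 113 points 82 lie above the line; Igkv14-126, Igkv15-103, Ighv11-2 and Ighv7-1 are the 4 highest in cKO 1, while Ighv8-12, Igkv4-59 and Igkv8-21 lie far below the line.

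Between the 2 low libraries, 8 segments (7.08%) were at least 2-fold higher in cKO 2 than in WT 1, beside 0.745% of all tested genes. Another 6 (5.31%) were at least 2-fold higher in WT 1, beside 0.616%. No excess is read from either share, because the members were chosen by their level in the same libraries and each side is 1 mouse. Of the 58 heavy chain members 18 were above 0 in both low libraries, and of the 52 kappa members 1 was, Igkv14-111, at 0.447 and 2.63 FPKM.

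Other genes of antibody assembly were read from lists. Of 16 recombination genes 0 passed the limma test in either direction, and 3 (Rag2, Dntt and Xrcc6) had both cKO values above both WT values, an arrangement found in 6.31% of all tested genes. Rag2 had 1.76, 1.71, 7.48 and 2.69 FPKM in WT 1, WT 2, cKO 1 and cKO 2. Dntt, which adds bases at the joints, had 168, 189, 388 and 232 FPKM, so it was plentiful also in the 2 libraries with few variable segments. Rag1 had 1.89, 1.10, 9.45 and 1.84 FPKM. The most abundant of the list beside Dntt were Hmgb2 (184, 351, 394 and 183 FPKM) and Hmgb1 (90.3, 118, 114 and 96.0 FPKM), DNA-bending proteins that many cell types express. WT 2, with 3082 FPKM of variable segments, therefore had no more Rag1 or Rag2 than WT 1, with 103 FPKM.

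The surrogate light chain and receptor partners, a list of 6 genes that includes parts of the pre-B receptor and of the mature receptor, followed the variable sums more closely. They summed to 58.9, 446, 762 and 66.4 FPKM in WT 1, WT 2, cKO 1 and cKO 2, all 6 were highest in cKO 1, and 0 passed the limma test. Vpreb1 and Igll1, the surrogate light chain genes, had 6.51, 77.7, 171 and 10.1 FPKM and 12.3, 94.0, 196 and 14.8 FPKM. Cd79a, a signalling partner of both receptors, had 14.9, 129, 200.1 and 14.8 FPKM.

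Summed markers of other cell types moved with the high and low libraries, though not each marker did, and their part in the segment levels was not tested. In each case the sums are given in the order WT 1, WT 2, cKO 1 and cKO 2. The 10 pro-B and pre-B markers summed to 200, 390, 849 and 271 FPKM, and all 10 were highest in cKO 1. Dntt alone gave 168, 189, 388 and 232 FPKM of these sums. Rag1, Rag2, Dntt and Cecr2 were lower in WT 2 than in cKO 2, whereas the others were higher in WT 2 than in both low libraries. The 10 mature B markers summed to 142, 266, 312 and 171 FPKM, 8 of them highest in cKO 1. Ms4a1 (CD20), Cr2 and Fcmr were listed at 0 in cKO 2 and were also near 0 in WT 1, at 0.187, 0.0525 and 0.232 FPKM. Cr2 was near 0 in every library, at most 0.158 FPKM in WT 2. Cd37 alone gave most of each mature B sum, at 118, 164, 172 and 143 FPKM. The 10 plasma cell markers summed to 75.0, 247, 494 and 75.3 FPKM, 9 of them highest in cKO 1. Among these, Jchain, which joins IgM and IgA chains, had 1.85, 106, 294 and 3.14 FPKM. Tnfrsf17, a receptor of plasma cells, was listed at 0 in both low libraries. It was also low in WT 2 and cKO 1, at 0.860 and 2.36 FPKM, and Prdm1 had at most 0.701 FPKM. Sdc1 and Tnfrsf13b did not move with the high and low libraries. Both were lowest in WT 2, at 8.37 and 18.2 FPKM, against 10.9 and 25.8 FPKM in cKO 2.

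Cells outside the B lineage showed the same division of mice. The 8 neutrophil markers summed to 2550, 32529, 58421 and 2002 FPKM, and all 8 were highest in WT 2 (2) or cKO 1 (6). The 6 erythroid markers summed to 2401, 22788, 18956 and 1954 FPKM. The 8 macrophage and monocyte markers summed to 415, 1865, 1146 and 367 FPKM, the 8 T cell markers to 16.5, 33.1, 31.1 and 21.4 FPKM, and the 6 plasmacytoid dendritic cell markers to 149, 348, 354 and 164 FPKM. Lck alone gave most of the T cell sum in WT 1 and cKO 2, at 13.4 and 18.7 FPKM. Bst2 alone gave 73.7, 218, 113 and 90.6 FPKM of the plasmacytoid dendritic cell sums. In that list Tcf4 ran the other way, at 14.2, 3.36, 7.13 and 16.7 FPKM. Irf8 (54.3, 53.0, 107 and 50.1 FPKM) and Ccr9 (1.11, 2.06, 3.39 and 2.15 FPKM) did not follow the division either. The 8 LSK markers summed to 1022, 528, 412 and 1141 FPKM, lower in the 2 libraries with high variable levels, and 6 of them were highest in cKO 2. Ly6a (Sca-1), one of the sort markers, did not follow this sum, at 37.2, 83.2, 48.4 and 38.2 FPKM, and it and Slamf1 were highest in WT 2. Kit, the other, had 108, 24.8, 25.9 and 116 FPKM. In these 6 lists and the pro-B, mature B and plasma lists no gene passed the limma test between genotypes.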

How the data were processed

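RNA-seq libraries were made from sorted LSK cells of 4 mice, 2 per genotype, as the labels' protocols say. The authors deposited 1 table per library of values taken here as FPKM, since the file headers name only the library. Per the submitters' processing notes, featureCounts 1.6.4, HISAT2 2.1, DESeq2 2.11.40.6, cutadapt 1.16.5, bcl2fastq 2.19 and the build mm10 were used, with no role given. The tool that wrote the values, the annotation, the strand setting and the handling of reads that fit several segments were not given in the sources used here, and such reads may be split or lost. Depth is unknown, so no counting interval was computed.

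The members and lists were chosen with earlier results of these data known. Genes that reached 1 FPKM in 2 or more libraries were tested by limma 3.58.1 (R 4.3.3) on log2(FPKM + 1), 2-sided, with an intensity trend and Benjamini-Hochberg adjustment over 13148 genes. The planned count test was not used, because the values are not counts. Sums were compared by an exact permutation test. The segments named were the leading 3 of each library and locus, the 5 heavy and 5 kappa segments with the highest means, the 5 with the smallest limma p in each direction, known specificities and those at the level limit; other segments and most list genes were chosen after their values were seen. Positions, annotation and sequences came from GENCODE release 21 (GRCm38), which matched 112 of 113 members and 346 of 348 rows. Alternatives were another pseudocount, no filter, other scalings, no trend, a replicate block, all rows of a locus and leaving out each library.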

Additional observations from a re-analysis of the deposited data

How the results depend on the processing

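The limits are 2 mice per genotype, an inferred unit, unknown depth and segments too alike to separate. With another pseudocount (0.1), no filter on low values, equal sums, median ratios or no intensity trend, 0 segments were called. The medians kept their direction in these 5 settings, as did 33 of 35 named segments, and the sums did with the other pseudocount and the 2 scalings (filter and trend do not enter them). Ighv12-3 (otherwise 0.03) turned to -0.64 with the pseudocount and -0.016 with equal sums, and Ighv1-72 (otherwise 0.05) to -0.27 with the pseudocount. Leaving out 1 mouse at a time gave 0 to 32 of all genes called higher and 0 to 5 lower, and 0 to 25 segments called higher and 0 to 2 lower. The log2 difference then ranged from -2.04 to 4.02 for the heavy, -2.03 to 4.80 for the kappa and -4.77 to 1.79 for the lambda sum. The medians ranged from -1.63 to 2.39, -1.95 to 2.61 and -3.19 to 2.1. Of the 35 named segments that were tested, 27 changed direction: Ighv1-12 (-4.00 to 1.09), Ighv1-18 (-1.86 to 6.42), Ighv1-26 (-3.06 to 2.27), Ighv1-62-1 (-1.28 to 0.16), Ighv1-72 (-1.59 to 1.69), Ighv1-74 (-1.54 to 0.69), Ighv1-77 (-0.74 to 1.05), Ighv1-81 (-2.23 to 0.70), Ighv12-3 (-2.69 to 2.74), Ighv5-9-1 (-2.82 to 3.92), Ighv7-1 (-3.18 to 6.64), Ighv8-12 (-4.78 to 1.45), Ighv9-1 (-2.92 to 0.37), Ighv9-3 (-2.81 to 5.04), Igkv12-44 (-4.63 to 2.71), Igkv15-103 (-4.09 to 6.55), Igkv16-104 (-0.50 to 4.18), Igkv19-93 (-3.46 to 5.90), Igkv4-57-1 (-0.52 to 2.56), Igkv4-59 (-5.56 to 2.08), Igkv5-39 (-3.35 to 3.58), Igkv8-21 (-1.46 to 2.34), Igkv8-28 (-3.71 to 1.04), Igkv9-120 (-2.41 to 4.89), Iglv1 (-4.55 to 1.68), Iglv2 (-3.58 to 2.80) and Iglv3 (-0.54 to 2.1). The other 8 kept their direction. With WT 1 and cKO 2 alone, the heavy member sum differed by -0.0742. Over all heavy chain rows the order was the opposite, at 71.3 FPKM in WT 1 and 85.3 FPKM in cKO 2. If 1 FPKM were required in all 4 libraries, 7 segments would be members. The cause of these changes was not tested.

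The labels do not say that replicate numbers pair mice, and same-numbered mice deviated in opposite directions (correlation -0.71 over 13148 genes). With the replicate block, 3 genes were called higher, all 3 of them segments (Ighv11-2, Igkv14-126 and Igkv5-48), and 1 lower, which was no segment. With the numbers crossed, an alternative chosen after seeing the data, 37 of the 13148 tested genes were called higher and 65 lower. Among them were 17 and 5 segments. The crossed numbers set WT 2 and cKO 1 apart from WT 1 and cKO 2. Most members met the level rule through WT 2 and cKO 1, so these segment counts support nothing about genotype. The counts of separated segments without a mouse, and the sums over 1 mouse per genotype, were also added after seeing the data.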
